A study of Mus musculus with 6 samples.

Results

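Pla2g4a, Acsl4, Hpgds, Ptger2 and Slco2a1 were followed as 5 genes of the arachidonic acid and prostaglandin pathway in the uterus. They were chosen by gene symbol for their places in the pathway, with earlier results of these data known. Their shared direction is therefore not a test. Every probe set annotated to 1 of them was taken: 7 of the 1382 probe sets in the table, of which 3 belong to Acsl4 and 1 to each of the others. Uterine RNA had been collected from intact mice at 3.5 days post coitum and hybridised to Affymetrix arrays, with 3 arrays of Stat3 d/d uteri and 3 of Stat3 f/f uteri. Stat3 d/d mice carry deleted alleles of the transcription factor gene Stat3, and Stat3 f/f mice carry the intact floxed alleles. The labels do not give the Cre driver, and so not the cells in which Stat3 was deleted, nor age or strain. They also do not say whether each array came from its own animal, so a p-value here reflects variation among these arrays, part or all of which may be technical.

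Arachidonic acid is a fatty acid held in membrane phospholipids. Cytosolic phospholipase A2 releases it, acyl-CoA synthetases and lysophospholipid acyltransferases return it to lipids, and the cyclooxygenases turn it into an unstable prostaglandin that terminal synthases convert into the individual prostaglandins. Prostaglandins act on G protein-coupled receptors, and a membrane carrier takes them up for oxidation. In the mouse uterus before implantation they are known for their part in vascular permeability, embryo spacing and decidualization, and mice without Pla2g4a implant late and unevenly.

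The table was itself selected on the comparison described here. Each of its 1382 probe sets has group means at least 1.50-fold apart and groups that do not overlap, so 100% of the table passed the test, and a member's pass carries no weight by itself. Probe sets outside the table, including any other probe sets of the 5 genes, were not analysed here. Intensities of the whole table ran from 2.47 to 4352, with 931 probe sets on the upper side in Stat3 d/d and 451 on the lower. Stat3 itself, on the brighter of its 2 probe sets, read 121, 101 and 131 in Stat3 d/d and 262, 356 and 243 in Stat3 f/f. Among the markers of the uterus, Pgr was present, averaging 694 in Stat3 d/d and 1261 in Stat3 f/f, and the other 9 markers were not in the table.

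All 5 genes were higher in Stat3 d/d uteri. The prostaglandin receptor gene Ptger2 and the phospholipase gene Pla2g4a rose most, 2.80-fold and 2.70-fold, and the brightest Acsl4 probe set rose 2.22-fold. Hpgds and Slco2a1 rose 1.64-fold and 1.60-fold. The probe sets of Ptger2 and Pla2g4a and the brightest of Acsl4 passed under each of the 3 scalings tried. The other 4 did not pass once arrays were aligned on this table. Alignment lowered every member change, and the 3 that passed had the largest changes as deposited, so their pass is no separate support. Of all probe sets 67.4% passed as higher as deposited, where the selection fixed the pass. The share was 30.5% after centring each array on its median and 31.5% after quantile normalization. Folds are on the log2(intensity + 1) scale. Every change is given as Stat3 d/d less Stat3 f/f and was tested by limma with Benjamini-Hochberg adjustment over all 1382 probe sets at a threshold of 0.05.

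The upstream sequences of Ptger2, Acsl4 and Slco2a1 show the range of promoter composition among genes that rose together: Ptger2 had the largest change, and the other two each hold a motif named below. Each is the 250 bases before the annotated start, from RefSeq, build GRCm38.p6, read 5′ to 3′ on the gene's strand, and capitals mark the motifs named below. Ptger2 lies at chr14:44987861-44988110 on the plus strand, Acsl4 at chrX:142390536-142390785 on the minus strand and Slco2a1 at chr9:103008237-103008486 on the plus strand.
Ptger2: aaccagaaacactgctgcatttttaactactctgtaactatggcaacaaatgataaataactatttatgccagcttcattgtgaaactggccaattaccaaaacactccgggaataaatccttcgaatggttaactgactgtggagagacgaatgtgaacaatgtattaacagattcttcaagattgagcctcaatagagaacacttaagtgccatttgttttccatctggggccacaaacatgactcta
Acsl4: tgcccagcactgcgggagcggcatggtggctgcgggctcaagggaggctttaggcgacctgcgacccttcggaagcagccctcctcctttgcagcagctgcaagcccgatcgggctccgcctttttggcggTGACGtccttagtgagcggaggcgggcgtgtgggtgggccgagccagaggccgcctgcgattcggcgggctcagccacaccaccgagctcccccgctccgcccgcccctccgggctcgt
Slco2a1: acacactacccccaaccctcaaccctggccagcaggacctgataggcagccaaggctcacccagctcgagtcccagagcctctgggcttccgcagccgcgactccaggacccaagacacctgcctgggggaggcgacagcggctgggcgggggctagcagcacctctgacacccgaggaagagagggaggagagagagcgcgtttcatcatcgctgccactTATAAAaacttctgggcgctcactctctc

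The Ptger2 window is 38.0% G and C with 3 CpG sites, against 70.8% and 25 in Acsl4 and 63.2% and 12 in Slco2a1. Over the 32851 promoter windows of the same length the medians were 52.4% and 6. All 5 genes matched in the RefSeq promoter table, with 6 windows, as Pla2g4a has 2 annotated starts. Motifs were searched on both strands as exact letters. The STAT motif TTCNNNGAA was in 0 of the 6 windows and in 7.02% of all windows, and the interferon-response motif GAAANNGAA in 0 of 6 and 7.13% of all. The full cyclic AMP response element TGACGTCA was in 0 of 6 and 1.55% of all, and the progesterone response element ACANNNTGT in 0 of 6 and 5.84% of all. The shorter TGACG, which is also part of the full element, was in the Acsl4 window from position -119 to -115 and in 17.8% of all windows. The TATA box letters TATAAA were in the Slco2a1 window from -29 to -24, as capitals show above, in 1 of the 2 Pla2g4a windows on the reverse strand, and in 12.4% of all windows. A match is a description of these letters, not of a bound site.

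Pla2g4a encodes cytosolic phospholipase A2 alpha, which cuts arachidonate from membrane phospholipids. Its probe set (1448558_a_at) read 411, 485 and 493 in Stat3 d/d and 166, 107 and 279 in Stat3 f/f. The lowest Stat3 d/d array was 1.48-fold above the highest Stat3 f/f array, so the groups were apart, as the selection of the table requires. The Stat3 f/f arrays themselves spanned 2.61-fold. The means were 463 ± 45.0 in Stat3 d/d and 184 ± 87.3 in Stat3 f/f (SD, n = 3 each). The log2 change was 1.43 (SE 0.29, limma adjusted p = 0.00152). It depended on which Stat3 f/f array was used. The change was 1.10 without Stat3 f/f replicate 2, the lowest, and 1.79 without replicate 4, the highest. It passed in both cases, but so did nearly all of the 931 rises, with 923 and 924 passing in the same order.

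Acsl4 encodes an acyl-CoA synthetase that prefers arachidonate, and so competes with the cyclooxygenases for the free acid. The brightest of its 3 probe sets (1433531_at) read 242, 240 and 237 in Stat3 d/d and 150, 75.7 and 110 in Stat3 f/f. The Stat3 d/d arrays were nearly equal, at 1.02-fold from lowest to highest, while the Stat3 f/f arrays spanned 1.98-fold. The means were 240 ± 2.09 in Stat3 d/d and 112 ± 37.1 in Stat3 f/f (SD, n = 3 each), a log2 change of 1.15 (SE 0.23, limma adjusted p = 0.00143).

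The other Acsl4 probe sets changed the same way by less. The middle one (1418911_s_at) read 53.0, 47.5 and 51.2 in Stat3 d/d and 31.4, 20.6 and 36.2 in Stat3 f/f, a log2 change of 0.80 (SE 0.21). Its suffix marks probes that can match several transcripts. The dimmest (1451828_a_at) read 9.01, 7.99 and 8.41 in Stat3 d/d and 6.27, 4.78 and 5.77 in Stat3 f/f, a log2 change of 0.52 (SE 0.17). All 3 had their lowest Stat3 f/f value on replicate 2, as had 39.9% of the table. None of their groups overlapped, which holds for 100% of the table by its selection. The change of the brightest exceeded that of the dimmest by 0.62 (95% interval 0.09 to 1.15), and by 0.55 with no pseudocount. The exact two-sided permutation p was 0.10, the smallest that 3 arrays against 3 allow, so this test cannot pass 0.05 here; its adjusted p over the 3 pairs was 0.30.

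Hpgds encodes hematopoietic prostaglandin D synthase, which makes prostaglandin D2 and is known from mast cells and other leukocytes. Its probe set (1421492_at) was dim, with 14.9, 13.8 and 15.6 in Stat3 d/d and 9.51, 8.17 and 8.12 in Stat3 f/f. Within each group the arrays lay close together, at 1.14-fold in Stat3 d/d and 1.17-fold in Stat3 f/f from lowest to highest. The means were 14.8 ± 0.945 in Stat3 d/d and 8.60 ± 0.788 in Stat3 f/f (SD, n = 3 each), a log2 change of 0.72 (SE 0.16, limma adjusted p = 0.00239). The pseudocount weighs on a probe set this dim: with none the change was 0.78, and with 16 in place of 1 it was 0.32 (limma adjusted p = 0.00675). With 16 the change of the dimmest Acsl4 probe set was 0.18 (limma adjusted p = 0.0474).

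Ptger2 encodes EP2, a prostaglandin E2 receptor that raises cyclic AMP. Its probe set (1449310_at) read 53.0, 76.8 and 67.3 in Stat3 d/d and 24.8, 22.5 and 20.4 in Stat3 f/f. The groups were 2.14-fold apart at their nearest arrays, the widest gap among the 7 probe sets, and here the Stat3 d/d arrays spread more (1.45-fold) than the Stat3 f/f arrays (1.21-fold). The means were 65.7 ± 12.0 in Stat3 d/d and 22.6 ± 2.19 in Stat3 f/f (SD, n = 3 each). The log2 change was 1.49 (SE 0.19, limma adjusted p = 9.28e-05).

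Slco2a1 encodes the prostaglandin transporter, which carries prostaglandins into cells where they are oxidised. Its probe set (1420913_at) read 70.5, 73.7 and 80.9 in Stat3 d/d and 41.6, 48.6 and 49.9 in Stat3 f/f. The nearest arrays of the groups were 1.41-fold apart, with a similar spread inside each group. The means were 75.0 ± 5.32 in Stat3 d/d and 46.7 ± 4.46 in Stat3 f/f (SD, n = 3 each), a log2 change of 0.67 (SE 0.16, limma adjusted p = 0.00345).

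**Figure D1:**
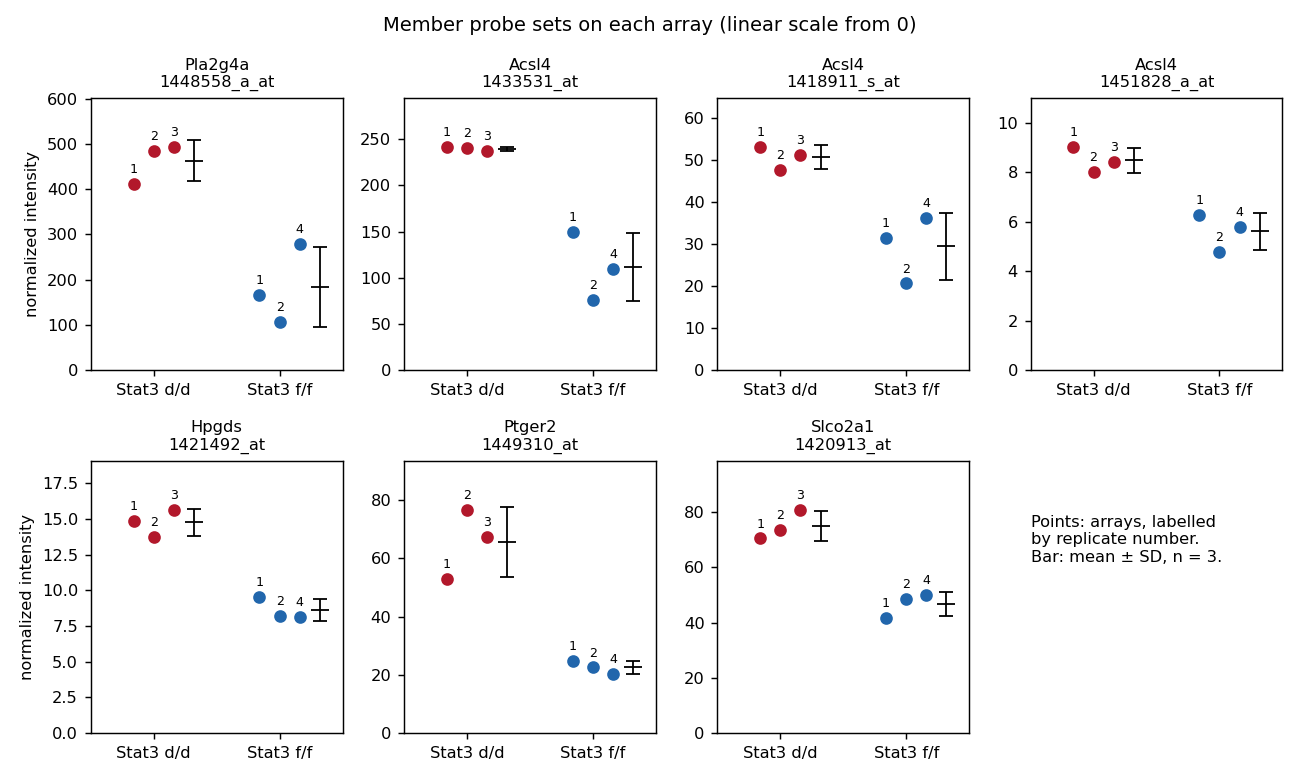
Normalized intensity of the 7 probe sets on each array, Stat3 d/d left and Stat3 f/f right, on a linear axis from 0 with its own range in each panel; points are arrays with their replicate number and bars are the mean ± SD of 3 arrays. The groups are apart in every panel, which the selection of the table requires, and the Stat3 f/f arrays of Pla2g4a span 107 to 279 while the Stat3 d/d arrays of the brightest Acsl4 probe set lie between 237 and 242.

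The spread within groups differed among the genes. In 6 of the 7 probe sets, all but Ptger2, the SD on the log2 scale was larger in Stat3 f/f than in Stat3 d/d, and the same held for 61.4% of the table. It was 0.14 in Stat3 d/d and 0.69 in Stat3 f/f for Pla2g4a, and 0.01 in Stat3 d/d and 0.49 in Stat3 f/f for the brightest Acsl4 probe set, against table medians of 0.17 in Stat3 d/d and 0.22 in Stat3 f/f. The array of Stat3 f/f replicate 2 was the lowest of its group for Pla2g4a and the 3 Acsl4 probe sets, but not for Hpgds, Ptger2 or Slco2a1, and it was the lowest for 39.9% of the table. The same array had the highest Stat3 reading of all 6, at 356, and a link between these readings was not tested.

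Because each array reads all probe sets, shifting a whole array, as median centring does, leaves the log2 difference between 2 genes on it as it was, though quantile normalization can move it. The 10 pairs among the 5 genes were compared by the brightest probe set of each, and the 3 largest differences in change are given first. The change of Ptger2 exceeded that of Hpgds by 0.77 (95% interval 0.25 to 1.29, from the pooled spread of the arrays) and that of Slco2a1 by 0.81 (0.24 to 1.39) on the log2 scale. The change of Pla2g4a exceeded that of Slco2a1 by 0.76, with an interval of -0.34 to 1.85 that includes 0. Each of these had an exact two-sided permutation p of 0.10, the smallest possible, and 0.33 after adjustment over the 10 pairs, so none passed. Ptger2 and Pla2g4a differed in their change by 0.06 (-1.20 to 1.31), and Hpgds and Slco2a1 by 0.04 (-0.39 to 0.47). These intervals still allow sizeable differences, above all for Ptger2 and Pla2g4a.

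The size of the changes was read against the rest of the table. By log2 change the members stood between rank 171 (Ptger2) and rank 913 (the dimmest Acsl4 probe set) among the 931 rises. A change of at least 1 was found for 3 of the 7 probe sets, against 29.0% of the table. All 7 passed in the upward direction, against 67.4% of the table. With an adjustment as if 45000 probe sets had been tested, roughly a whole array, 3 of the 7 passed upward, against 28.0% of the table. Those 3 had limma adjusted p-values of 0.00302 for Ptger2, 0.0466 for the brightest Acsl4 probe set and 0.0496 for Pla2g4a, the last 2 just inside the threshold. With 7 probe sets of 5 genes, chosen with earlier results known, these shares are a description.

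**Figure D2:**
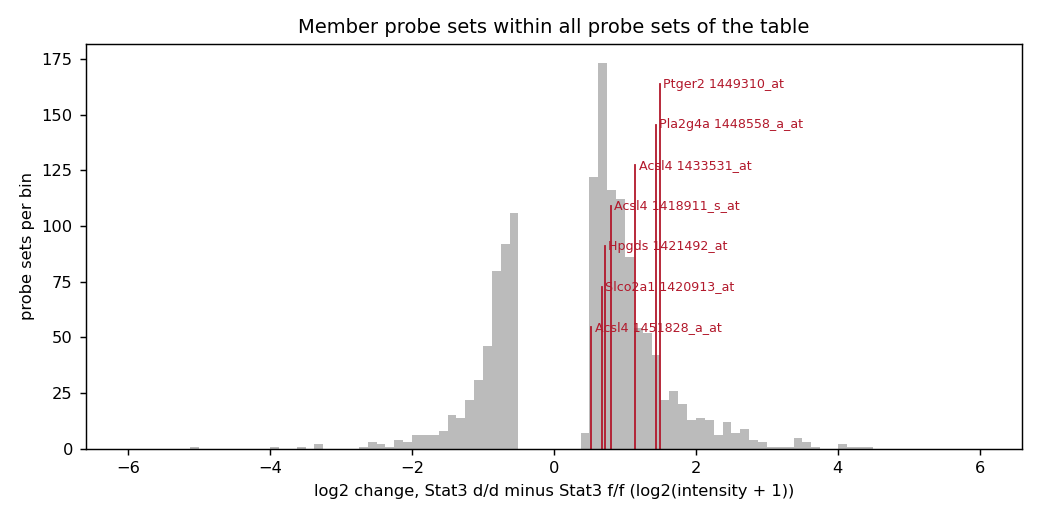
Histogram of the log2 change, Stat3 d/d minus Stat3 f/f, of all 1382 probe sets in bins of equal width, with vertical lines at the 7 probe sets of the 5 genes (line heights only separate the names). The empty middle is the selection of the table; the members lie between 0.52 and 1.49, with Ptger2, Pla2g4a and the brightest Acsl4 probe set above the median rise of 0.93 and the other 4 below it.

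Aligning the arrays on this table lowered every change. The median change of all probe sets was 0.70 as deposited, 0.24 after centring each array on its median and 0.25 after quantile normalization, and a table selected to differ cannot show which scaling holds. After median centring the change was 1.02 for Ptger2 (adjusted p = 0.000711 in limma), 0.97 for Pla2g4a (adjusted p = 0.0132) and 0.68 for the brightest Acsl4 probe set (adjusted p = 0.0175). These 3 of 7 passed, against 30.5% of the table. Hpgds, at 0.25 (adjusted p = 0.187), Slco2a1, at 0.21 (adjusted p = 0.306), and the other 2 Acsl4 probe sets, at 0.33 and 0.06, did not. Quantile normalization passed the same 3 probe sets, against 31.5% of the table.

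**Figure D3:**
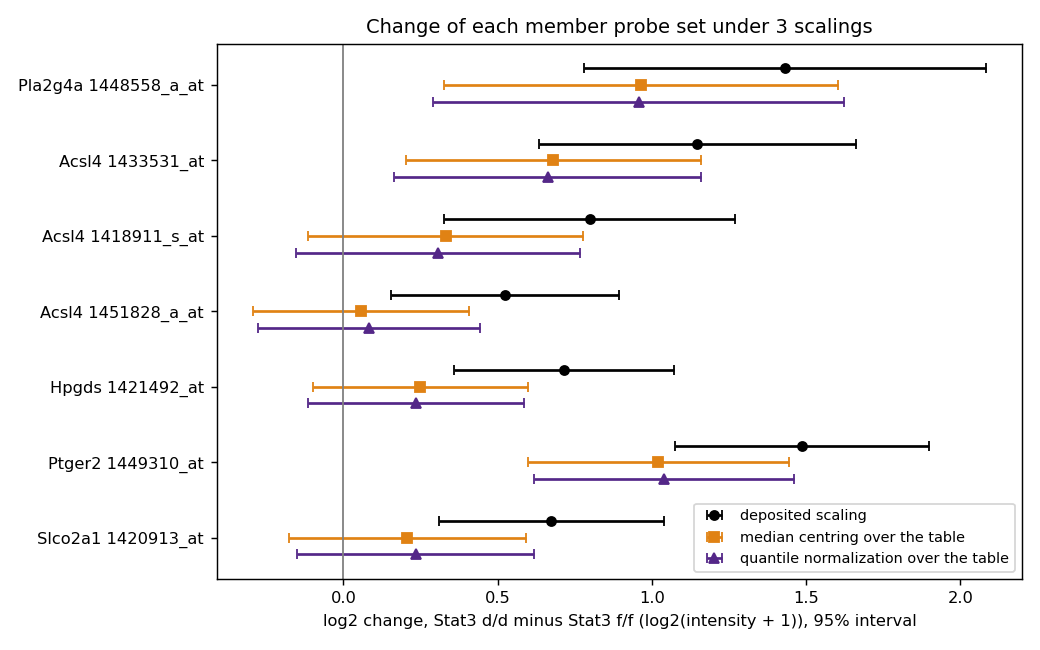
Log2 change, Stat3 d/d minus Stat3 f/f, of the 7 probe sets with 95% intervals from limma, as deposited (black circles), after median centring (orange squares) and after quantile normalization (purple triangles). All changes stay above 0, and the intervals of Ptger2, Pla2g4a and Acsl4 1433531_at exclude 0 under each scaling while those of the other 4 include it after both alignments.

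Other genes of the pathway came from a list of 131 ordered by role, of which 13, the 5 included, had a probe set in the table. Of the 13, 12 were higher and 1 lower past the threshold, with a median log2 change of 0.76; of all 987 genes in the table, a share of 66.9% were higher past the threshold, and the median was 0.70. Without the 5 genes, 7 of 8 were higher and 1 lower, with a median of 0.71. After median centring 5 of these 13 genes passed as higher, and the same 5 after quantile normalization and with 45000 assumed tests: Pla2g4a, Acsl4, Ptger2, Mboat2 and Slco2b1. Without the 5 members, 2 of 8 passed as higher under each of these settings. The shares over all probe sets of the table were 30.5%, 31.5% and 28.0%, in the same order. The 118 list genes outside the table were not analysed here.

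On the side of release and handling, 2 of 31 and 2 of 20 list genes were in the table. Abhd12, a lipase that hydrolyses monoacylglycerols, read 43.9, 36.5 and 30.9 in Stat3 d/d and 27.7, 18.0 and 19.4 in Stat3 f/f, and rose by 0.76 (SE 0.21). Mboat2, an acyltransferase that returns fatty acids to lysophospholipids, read 108, 103 and 109 in Stat3 d/d and 57.8, 44.9 and 64.2 in Stat3 f/f, and rose by 0.94 (SE 0.18). The Stat3 d/d arrays of Mboat2 lay close together and the Stat3 f/f arrays less so. Its groups did not overlap, as in 100% of the table. As with Pla2g4a and Acsl4 its lowest array was Stat3 f/f replicate 2, which was the lowest of its group for 39.9% of the table.

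Among 17 genes of prostanoid synthesis, Ptgs2 was in the table beside Hpgds. Ptgs2, the inducible cyclooxygenase, read 13.1, 15.1 and 9.97 in Stat3 d/d and 4.09, 3.30 and 9.24 in Stat3 f/f. Its nearest arrays almost met, 9.97 in Stat3 d/d and 9.24 in Stat3 f/f, and the whole range was dim. It rose by 1.16 (SE 0.30, limma adjusted p = 0.00437), and after median centring the change was 0.69 and did not pass (adjusted p = 0.0629). Of 16 receptor genes Ptger2 alone was in the table.

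Of 6 carriers, Slco2b1, an organic anion transporter of the same family as Slco2a1, read 66.7, 70.6 and 70.4 in Stat3 d/d and 31.4, 27.6 and 29.2 in Stat3 f/f, on a probe set that can match several transcripts (1433933_s_at). It rose by 1.21 (SE 0.16), with little spread in either group. Hpgd, the dehydrogenase that inactivates prostaglandins after uptake, was 1 of 4 such genes and read 133, 146 and 163 in Stat3 d/d and 109, 80.6 and 90.7 in Stat3 f/f. It rose by 0.65 (SE 0.18), and by 0.19 after median centring, where it did not pass (adjusted p = 0.352 in limma).

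The lipoxygenase branch held the 1 fall. Ggt5, a gamma-glutamyl transferase that converts leukotriene C4 to D4, read 18.5, 23.5 and 15.6 in Stat3 d/d and 34.8, 38.4 and 45.3 in Stat3 f/f, a log2 change of -1.01 (SE 0.19), and its other probe set changed by -0.75 (SE 0.19). Cysltr1, a receptor for cysteinyl leukotrienes, was dim, with 6.20, 6.52 and 5.29 in Stat3 d/d and 4.75, 3.89 and 3.24 in Stat3 f/f, and rose by 0.50 (SE 0.18). Of the epoxygenase branch Cyp2j6 was in the table and rose by 0.67 (SE 0.18). Neither Cysltr1 nor Cyp2j6 passed after median centring, where 422 of the 1382 probe sets passed as higher. Both Ggt5 probe sets passed, but centring here deepens every fall, and all 451 falls of the table passed after it.

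**Figure D4:**
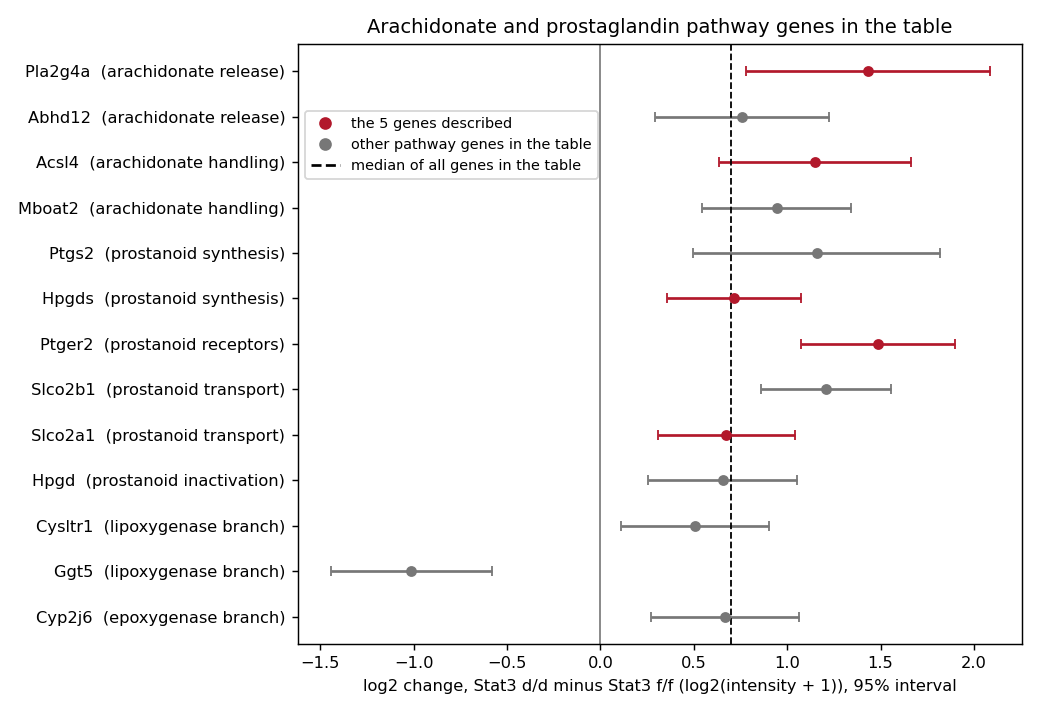
Log2 change, Stat3 d/d minus Stat3 f/f, with 95% intervals from limma, of the 13 pathway genes in the table, ordered by role and shown by the probe set with the highest mean; the 5 genes described are red, the others grey, and the dashed line is the median of all 987 genes. All but Ggt5 lie above 0, and Ptger2, Pla2g4a, Slco2b1, Ptgs2 and Acsl4 lie farthest to the right.

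Whole uteri hold many cell types, and in bulk RNA more cells of a type cannot be told apart from more RNA per cell. Of 23 macrophage and dendritic cell markers 9 were in the table, and all 9 were higher in Stat3 d/d past the threshold, as were 66.9% of all table genes. After median centring 7 of the 9 passed, against 30.5% of all probe sets. Their summed intensity was 857 to 1799 in Stat3 d/d and 330 to 533 in Stat3 f/f. For T and NK cells 10 of 20 were in the table, all higher, as were 66.9% of all table genes. Of these 10, 9 passed after median centring, against 30.5% of all probe sets. Sums over the 10 were 612 to 972 in Stat3 d/d and 173 to 298 in Stat3 f/f. A large part of each sum came from Ptprc, a gene of leukocytes in general. It read 420, 321 and 270 in Stat3 d/d and 145, 107 and 81.6 in Stat3 f/f. No marker in the table read 0. Their part in the changes of the 5 genes was not tested.

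Epithelial and stromal markers moved as well. Of 12 luminal epithelium markers 2 were in the table, Calb1 and Lpar3, both higher, as were 66.9% of all table genes. After median centring 1 of the 2 passed, Calb1 on its brightest probe set, against 30.5% of all probe sets. Their sums were 2310 to 2506 in Stat3 d/d and 695 to 812 in Stat3 f/f, nearly all of it from Calb1. Lpar3, a lysophosphatidic acid receptor known to act upstream of Ptgs2 in the mouse uterus, read 72.0, 78.5 and 87.5 in Stat3 d/d and 53.9, 49.4 and 34.3 in Stat3 f/f. It rose by 0.80 (SE 0.20), and by 0.33 after median centring, where it did not pass (adjusted p = 0.173 in limma). Of 10 gland markers 3 were in the table, all lower, with sums of 55.3 to 63.7 in Stat3 d/d and 184 to 640 in Stat3 f/f. Of 11 stromal markers 2 were in the table, both lower, with sums of 250 to 316 in Stat3 d/d and 371 to 585 in Stat3 f/f. Over the whole table, 451 of 1382 probe sets were lower. In the table, 0 of 12 mast cell, 0 of 10 endothelial, 0 of 8 smooth muscle, 0 of 10 neutrophil and 0 of 6 red cell markers were found, and those markers were not analysed here. Of B and plasma cells Ighm was present, at 28.7 to 49.6 in Stat3 d/d and 15.9 to 25.1 in Stat3 f/f. The oviduct gene Ovgp1, of 10 ovary and oviduct markers, read 240 to 494 in Stat3 d/d and 7.42 to 31.3 in Stat3 f/f.

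The genes whose pattern was most like each member were found by the root mean square difference over the 6 arrays of log2 values, each centred on its own mean. For Pla2g4a these were Sdc2, a syndecan (0.16), Ivns1abp (0.20) and Sema3e, a semaphorin (0.20). For Acsl4 they were C1qtnf3 (0.08), the orphan nuclear receptor Nr4a2 (0.10) and Umad1 (0.11), and for Ptger2 Zfp386 (0.11), Rhobtb3 (0.14) and Zfp874a (0.14). Hpgds was nearest to Ippk (0.05), Naaa, an amidase of fatty acid ethanolamides (0.06), and Arhgap24 (0.06), and Slco2a1 to Pacsin3 (0.02), Hebp2 (0.05) and Nsg2 (0.06). Members were not each other's nearest: the closest pair, Hpgds and Slco2a1, differed by 0.16, and Pla2g4a and Acsl4 by 0.39. Large likeness comes easily to genes of small change and spread, such as Hpgds and Slco2a1.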

How the data were processed

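RNA from 6 mouse uterus samples was measured on Affymetrix arrays. The submitters' processing notes name RMA, which corrects background, quantile-normalizes and summarises probes, without a version. The authors deposited 1 intensity per probe set and array on a linear scale, so the values had been returned from log2, a step no source records. How probe sets were chosen for the table, the genome build and the annotation were not given in the labels.

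The platform annotation gave 1 symbol to 1191 probe sets, several to 57 and none to 134; 1186 identifiers matched RefSeq (GRCm38.p6). Groups came from the source names. The log2(intensity + 1) values of the groups were compared with limma 3.58.1 (R 4.3.3; lmFit, eBayes), without covariates, and adjusted by Benjamini-Hochberg across the table. The variance model learns from a selected table, so p-values can be too small, and the number of arrays limits precision. The fit was tested on simulated data. Pairs of members were compared by exact permutation (SciPy 1.17.1), and figures were drawn with matplotlib 3.10.9.

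Members and gene lists were chosen with earlier results of these data known. Named genes are the 5 members, Stat3, each pathway list gene in the table and the 3 genes most like each member; the probe set with the highest mean stands for a gene. Pgr, Calb1, Lpar3, Ighm and Ovgp1 come from the marker lists. Alternatives were the pseudocount (none, or 16), scaling, variance model, a low-value filter, 45000 assumed tests, the replicate number as a block, averaging a gene's probe sets, and leaving out each array.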

Additional observations from a re-analysis of the deposited data

How the results depend on the processing

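Across the 7 member and 2 Stat3 probe sets, 133 values under alternatives were compared with the reported ones: 121 kept direction and side of the threshold, 12 kept direction but no longer passed, and 0 reversed. The 12 came from 3 settings. After median centring the log2 change was 0.33 and 0.0579 for the middle and dimmest Acsl4 probe sets, 0.25 for Hpgds and 0.21 for Slco2a1. After quantile normalization these were 0.31, 0.083, 0.24 and 0.23. With a pseudocount of 16 all 7 passed, but Hpgds had a change of 0.32 and the dimmest Acsl4 probe set one of 0.18. With 45000 assumed tests the changes stay as reported (0.80, 0.52, 0.72 and 0.67) and only the adjustment grows. The same 3 of 7 member probe sets were higher past the threshold after median centring, after quantile normalization and with 45000 assumed tests. So were the same 5 pathway genes. With a pseudocount of 16, 11 pathway genes were. The table counts were 422 higher after centring, 436 after quantile normalization, and 387 higher and 131 lower with 45000 assumed tests. Alignment lowers changes here because the table holds more rises than falls, 931 against 451. Centring shifts every change by the same amount, and quantile normalization by unequal amounts. Leaving out 1 array gave ranges of 1.10 to 1.79 for Pla2g4a and 0.90 to 1.38 for the brightest Acsl4 probe set. The ranges were 0.68 to 0.78 for Hpgds, 1.37 to 1.63 for Ptger2 and 0.60 to 0.72 for Slco2a1. All of these changes were past the threshold, but so were 904 to 927 of the 931 rises, depending on the array left out. The probe sets had been selected on these same arrays, so a member's pass here carries little weight. Replicate numbers 1 and 2 occur in both groups, but the labels do not pair them, and deviations of same-numbered arrays correlated at 0.09 and 0.03. With the replicate number as a block all 7 passed, with 1.74 for Pla2g4a and 1.39 for Ptger2, and 886 probe sets were higher and 398 lower. Stat3 d/d replicate 3 and Stat3 f/f replicate 4 have no partner of the same number. Those arrays do not enter the block changes, which rest on replicates 1 and 2 of each group. The filter on dim probe sets leaves out Hpgds and the dimmest Acsl4 probe set, which therefore have no value under it.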
